A study of Mus musculus with 12 samples.

Results

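The level of 10 genes of DNA replication and proliferation was followed in the livers of 12 fasted mice. These were Mcm2, Mcm3, Mcm4, Mcm5, Mcm6, Mcm7, Pcna, Rrm2, Mki67 and Top2a, chosen by symbol, and all 10 had a row among the 41708 genes of the table. RNA of whole livers was sequenced from 7 mice with a hepatocyte knockout of Ube4a (LKO) and from 5 Ube4a flox/flox mice (flox), all on a C57BL6/J background and all after a 16 h fast. Both groups carried the floxed Ube4a alleles, and the LKO mice also carried the Albumin-Cre transgene, in which a promoter active in hepatocytes drives the Cre recombinase. The knockout is therefore aimed at hepatocytes, and Ube4a was not measured here in single cell types. Cre without floxed alleles has no control group here. The sources used here state no age, sex, litter or batch of the mice.

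DNA is copied by cells in S phase. Beforehand, in G1, a ring of 6 related proteins, MCM2 to MCM7, is loaded at each origin and later unwinds the double strand. PCNA is a sliding clamp that holds polymerases on the template and also serves repair, and RRM2 is the small subunit of ribonucleotide reductase, which makes deoxynucleotides. Ki-67, the product of Mki67, coats mitotic chromosomes and marks cycling cells, and topoisomerase II alpha, the product of Top2a, untangles the copied chromosomes. Most hepatocytes of an adult liver are quiescent, so the mRNAs of these genes are usually scarce there, while blood-forming and immune cells can cycle in the same tissue.

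Many of these genes share short promoter elements. Sites for E2F factors are known from genes switched on before S phase, and CCAAT boxes and the cell cycle homology region (CHR) from genes switched on late in the cycle. RefSeq promoter windows of GRCm38.p6, each with 250 bases before and 50 after the start of the gene, were matched by symbol for 9 of the 10 genes (Mcm7 has 2 windows). The letters searched on both strands were TTTCCCGC, TTTCGCGC, TTTGCCGC and TTTGGCGC for E2F, CCAAT, and TTTGAA for the CHR. E2F letters were found for Mcm3, Mcm5, Mcm6 and Mcm7, 4 of the 9 genes, and in 2.26% of all 32851 windows. CHR letters were found for Mcm2, Mki67 and Top2a, 3 of the 9, and in 17.9% of all windows. All 9 held CCAAT, which 37.4% of all windows held. A match is a description of these letters and was not tested for binding.

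The 250 bases upstream of 6 genes are shown 5′ to 3′ on the strand of the gene, with E2F, CCAAT and CHR letters of either strand in capitals. The first 4 belong to genes whose mRNA was highest in the same pair of livers, as described further on, and Mcm7 and Pcna to genes that were not. Mcm2 and Mcm3 were also highest in that pair and are not shown. The window of Mcm2 holds 0 E2F matches, 1 CCAAT match and 1 CHR match. That of Mcm3 holds 2 E2F matches, both after the start, and 3 CCAAT matches. A relation between the letters and the levels was not tested. Mcm5 lies at chr8:75109259-75109508 (plus strand), Mcm6 at chr1:128359706-128359955, Top2a at chr11:99024190-99024439, Mki67 at chr7:135716380-135716629, Mcm7 at chr5:138171884-138172133 and Pcna at chr2:132253181-132253430 (the last 5 on the minus strand).

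Mcm5: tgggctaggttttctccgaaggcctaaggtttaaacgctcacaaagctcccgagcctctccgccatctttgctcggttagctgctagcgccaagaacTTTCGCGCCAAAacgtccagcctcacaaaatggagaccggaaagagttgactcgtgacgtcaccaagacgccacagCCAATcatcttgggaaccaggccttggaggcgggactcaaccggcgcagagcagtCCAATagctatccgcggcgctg
Mcm6: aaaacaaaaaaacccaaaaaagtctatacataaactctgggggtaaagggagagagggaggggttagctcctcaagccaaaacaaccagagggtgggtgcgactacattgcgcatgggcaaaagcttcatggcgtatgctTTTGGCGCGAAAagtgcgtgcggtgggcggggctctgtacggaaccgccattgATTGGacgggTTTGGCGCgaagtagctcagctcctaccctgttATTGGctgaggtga
Top2a: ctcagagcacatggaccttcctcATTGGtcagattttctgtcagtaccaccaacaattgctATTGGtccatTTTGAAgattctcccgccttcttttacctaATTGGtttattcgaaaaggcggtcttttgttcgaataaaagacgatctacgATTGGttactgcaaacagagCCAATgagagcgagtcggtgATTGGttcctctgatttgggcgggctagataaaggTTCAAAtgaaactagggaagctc
Mki67: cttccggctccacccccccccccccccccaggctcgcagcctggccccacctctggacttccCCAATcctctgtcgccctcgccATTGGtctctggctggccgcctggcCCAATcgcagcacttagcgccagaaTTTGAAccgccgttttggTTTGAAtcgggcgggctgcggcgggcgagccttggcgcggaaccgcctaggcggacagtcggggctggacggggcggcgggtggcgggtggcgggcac
Mcm7: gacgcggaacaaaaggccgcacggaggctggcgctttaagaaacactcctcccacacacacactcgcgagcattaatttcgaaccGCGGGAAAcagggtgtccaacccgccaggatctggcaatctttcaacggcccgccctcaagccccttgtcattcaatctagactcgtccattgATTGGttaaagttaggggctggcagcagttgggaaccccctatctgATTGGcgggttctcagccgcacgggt
Pcna: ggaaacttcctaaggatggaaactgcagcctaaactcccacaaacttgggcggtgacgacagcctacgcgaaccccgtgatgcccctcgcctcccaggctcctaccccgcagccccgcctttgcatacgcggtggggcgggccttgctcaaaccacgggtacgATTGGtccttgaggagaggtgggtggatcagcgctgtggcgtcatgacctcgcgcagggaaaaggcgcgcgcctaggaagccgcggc

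Mcm5 and Mcm6 each hold a stretch in which E2F letters of the plus and the minus strand overlap, and Mcm6 has a further E2F match 47 bases before the start. With 3 E2F matches in its window Mcm6 was among 0.0122% of windows that had at least 3. Top2a holds 6 CCAAT matches, where 3.37% of windows held at least 3, and 2 CHR matches. Mki67 holds 3 CCAAT and 2 CHR matches and none of the E2F letters. In Mcm7, outside the set of genes highest in that pair of livers, the upstream stretch holds 1 E2F and 2 CCAAT matches. The whole window holds 2 E2F and 3 CCAAT matches, as many as that of Mcm5. The other Mcm7 window holds 0 E2F matches and 1 CCAAT match. In Pcna the window holds 1 CCAAT match.

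The libraries held 13399874 to 16525053 counts, and 3 counts, the limit that a count of 0 allows, corresponded to 0.180 to 0.229 CPM (the count relative to the TMM-scaled size of the library). This limit covers counting error alone. Ube4a, which checks the labels, had 23.2 to 34.0 CPM in LKO livers and 120 to 152 CPM in flox livers (log2 fold change -2.33, adjusted p = 3.44e-09 in edgeR's quasi-likelihood test). The livers expressed hepatocyte genes, with albumin at 5.72% to 8.15% of all counts. Of the 12 livers, flox replicates 4 and 5 were set apart, at 45.8 and 64.8 on the first principal component (37.3% of the variance), where LKO replicate 1 came next at 15.3. Results are therefore given with and without these 2 livers. The labels list separate mice, and p-values measure the spread between these samples.

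None of the 10 genes passed the adjusted threshold of 0.05 between LKO and flox livers. Of the 10, 8 passed the filter on low counts, and 0 of these 8 were called by edgeR, against 1 of 12615 genes tested (0.00793%, Ube4a itself). At an unadjusted p under 0.05 there was 1 of the 8, Mcm5, against 7.64% of all genes tested in either direction and 4.15% lower in LKO livers. Mcm5 passed the filter only through flox replicates 4 and 5, which also set its direction, so this count is a description. With a filter of at least 1 CPM in 5 livers Mcm5 was not tested, and 0 of 7 genes had such a p. DESeq2, which tests all 10, called 0 of them and 28 of 13446 genes (0.208%). It had 4 of the 10 (Mki67, Top2a, Mcm5 and Mcm6) at an unadjusted p under 0.05, against 1323 of 21963 genes with a p (6.02%). In DESeq2 without flox replicates 4 and 5, 0 of the 10 had such a p, against 836 of 21466 genes. The log2 fold changes of the 4 were negative with all livers and 0.90, 0.75, 0.87 and 0.30 without the pair, so that count rested on those livers. Mki67 and Top2a were too scarce for the edgeR filter and were compared by an exact permutation test over the livers. The LKO and flox ranges overlapped for all 10 genes.

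Flox replicates 4 and 5 were the 2 highest of the 12 livers for 6 of the 10 genes, Mki67, Top2a, Mcm2, Mcm3, Mcm5 and Mcm6. They were not the 2 highest for Mcm4, Mcm7, Pcna and Rrm2. Among the 8 tested genes this was 4 of 8, beside 1439 of 12615 genes tested (11.4%). Of these 4, Mcm5 passed the low-count filter through that pair: it reached the filter's 0.649 CPM of total counts in 6 livers, 4 of them outside the pair, where 5 were needed, while Mcm2, Mcm3 and Mcm6 reached it in all 12. The count over the tested genes is therefore a description. The 2 livers held 76.7% of all counts of Top2a, 70.1% of Mki67, 60.8% of Mcm5, 44.2% of Mcm6, 38.6% of Mcm2 and 38.2% of Mcm3. For Mcm4, Mcm7, Pcna and Rrm2 the shares were 20%, 19.0%, 19.0% and 11.2%.

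**Figure D1:**
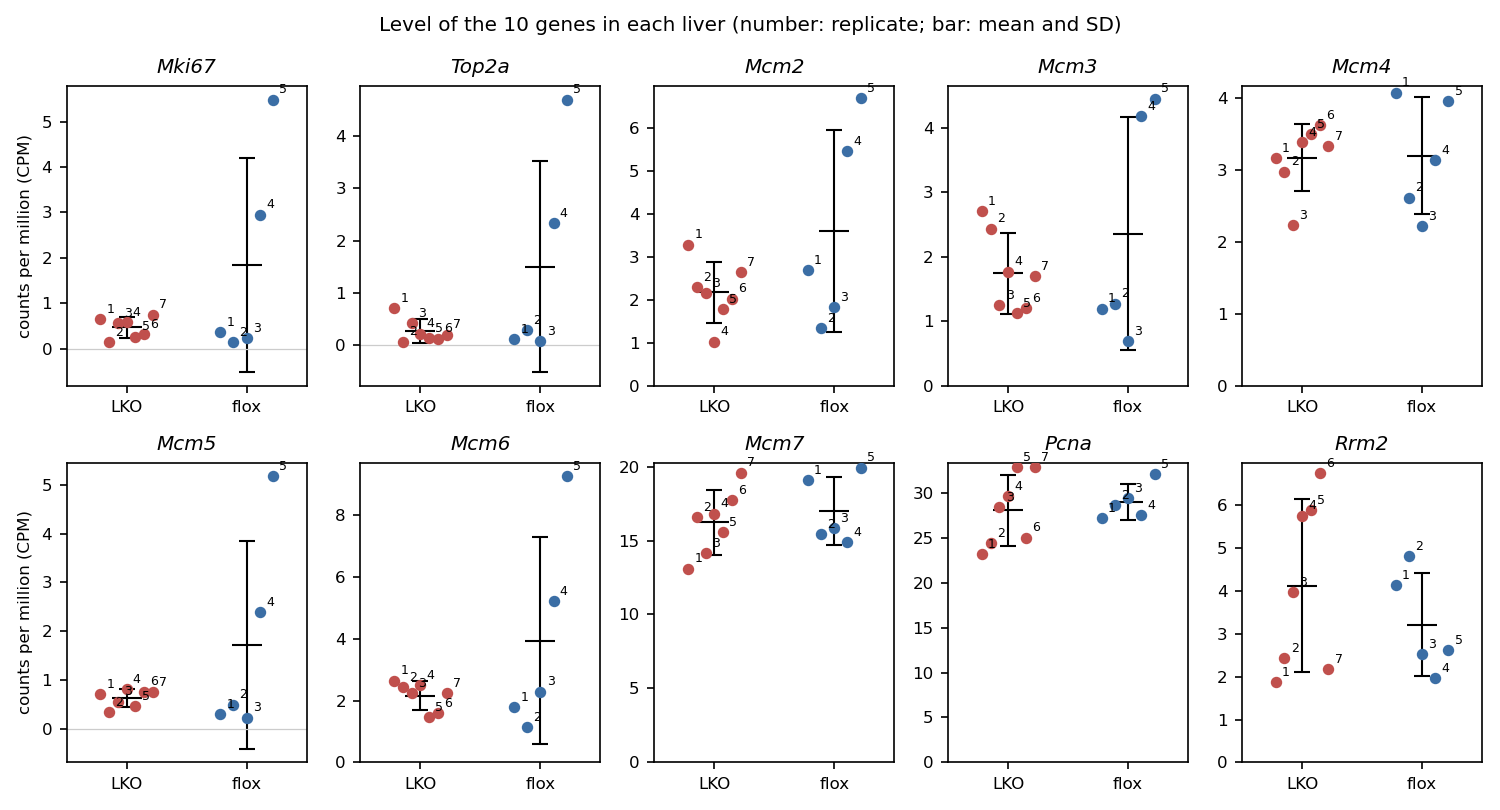
Level of the 10 genes in each liver, in CPM on linear axes. Points are single livers labelled by replicate number, LKO left (n = 7) and flox right (n = 5), with the mean and SD as bars. For Mki67, Top2a, Mcm2, Mcm3, Mcm5 and Mcm6 flox replicates 4 and 5 lie above all other livers, and for Mcm4, Mcm7, Pcna and Rrm2 they lie within or close to the range of the rest.

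Among the helicase ring genes, Mcm5 had the largest share of its counts in flox replicates 4 and 5. Mcm5 (chromosome 8 from 78496882 to 78516994, plus strand, in the C57BL/6NJ coordinates of the table, which are used for all genes) encodes a subunit that closes the ring next to MCM2. In LKO livers its lowest, median and highest levels were 0.338, 0.710 and 0.811 CPM, against 0.300, 0.495, 0.229, 2.40 and 5.18 CPM in flox replicates 1 to 5. The LKO livers and flox replicates 1 to 3 lay close together, while flox replicates 4 and 5 were 2.96 and 6.39 times the highest of the other 10 livers. Means were 0.627 ± 0.178 CPM in LKO and 1.72 ± 2.13 CPM in flox livers (SD, n = 7 and 5). The log2 fold change was -1.46 (95% confidence interval -2.86 to -0.06, adjusted p = 0.650 in edgeR). It was 0.86 without flox replicates 4 and 5 (adjusted p = 0.903), so its direction rested on those livers, and counts outside them were 3 to 12 per liver.

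Mcm6 (chromosome 1 from 136520209 to 136550619, minus strand) is a ring subunit that pairs with MCM2 and MCM4. Its lowest, median and highest levels in LKO livers were 1.45, 2.24 and 2.65 CPM, against 1.798, 1.13, 2.29, 5.23 and 9.27 CPM in flox replicates 1 to 5. Flox replicate 5 had 152 counts, and no liver outside the pair had more than 41. Outside flox replicates 4 and 5 the groups lay in the same range. The log2 fold change was -0.87 (standard error 0.42, adjusted p = 0.661 in edgeR) with all livers and 0.31 without the pair (adjusted p = 0.949).

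Mcm2 (chromosome 6 from 92715801 to 92731157, minus strand) encodes a subunit that also binds histones. Its levels in LKO livers had a lowest, median and highest of 1.03, 2.16 and 3.29 CPM, against 2.70, 1.34, 1.83, 5.47 and 6.71 CPM in flox replicates 1 to 5. The log2 fold change was -0.73 (standard error 0.38, adjusted p = 0.684 in edgeR) with all livers and 0.15 without flox replicates 4 and 5. Mcm3 (chromosome 1 from 19295246 to 19312590, minus strand) encodes the subunit between MCM5 and MCM7. It had a lowest, median and highest of 1.12, 1.70 and 2.71 CPM in LKO livers, against 1.199, 1.27, 0.688, 4.18 and 4.45 CPM in flox replicates 1 to 5. Its log2 fold change was -0.44 (standard error 0.43, adjusted p = 0.827 in edgeR) with all livers and 0.71 without the pair (adjusted p = 0.903). For Mcm2, Mcm3 and Mcm6 the highest of the other 10 livers was LKO replicate 1, with 3.29, 2.71 and 2.65 CPM.

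**Figure D2:**
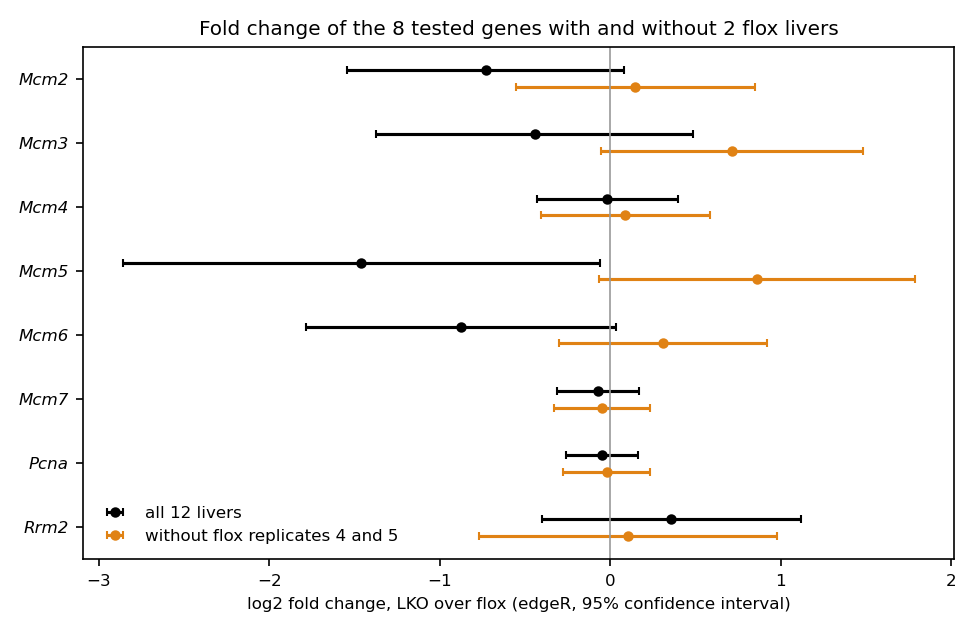
Log2 fold change (LKO over flox) of the 8 tested genes from edgeR, with 95% confidence intervals as bars, for all 12 livers (black) and without flox replicates 4 and 5 (orange). Mcm2, Mcm3, Mcm5 and Mcm6 lie left of 0 with all livers and right of 0 without the pair, and Mcm7 and Pcna stay near 0 in both fits.

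Mcm4 and Mcm7, whose products neighbour each other in the ring, were not highest in flox replicates 4 and 5. Mcm4 (chromosome 16 from 12856354 to 12873643, minus strand) had a lowest, median and highest of 2.23, 3.33 and 3.63 CPM in LKO livers, against 4.08, 2.62, 2.22, 3.14 and 3.96 CPM in flox replicates 1 to 5. Its highest liver was flox replicate 1, and flox replicate 4 was 8th of 12. The log2 fold change was -0.02 (95% confidence interval -0.43 to 0.40, adjusted p = 0.990 in edgeR), and 0.0877 without flox replicates 4 and 5. Prkdc, which encodes the catalytic subunit of DNA-dependent protein kinase and starts next to Mcm4 on the other strand, measured 7.32 CPM in LKO and 6.62 CPM in flox livers (log2 fold change 0.15, adjusted p = 0.827).

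Mcm7 (chromosome 5 from 148313874 to 148321780, minus strand) was the most abundant ring mRNA per length, at 3.04 to 4.56 FPKM in LKO and 3.48 to 4.68 FPKM in flox livers. Its lowest, median and highest levels were 13.1, 16.6 and 19.6 CPM in LKO livers, against 19.1, 15.4, 15.8, 14.9 and 19.9 CPM in flox replicates 1 to 5. Flox replicate 5 was the highest liver and flox replicate 4 was 10th of 12, so this pair was split. The log2 fold change was -0.07 (95% confidence interval -0.31 to 0.17, adjusted p = 0.899 in edgeR), and -0.05 without flox replicates 4 and 5. Mcm7 overlaps the ends of Cops6 and Ap4m1 on the other strand and hosts microRNA genes in an intron. Whether counting used strand is not stated in the sources used here, and reads of overlapping genes cannot be told apart.

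On the per-length scale (FPKM), the ring genes were far from equal in every liver. Their summed level was 5.18 to 7.02 FPKM in LKO livers, against 6.77, 5.22, 5.31, 8.08 and 11.5 FPKM in flox replicates 1 to 5. Mcm7 made up 62.1% ± 4.8 of that sum in LKO livers and 57.6% ± 14.3 in flox livers (SD, n = 7 and 5). Its share was 43.1% and 40.8% in flox replicates 4 and 5 and 51.8% to 69.5% in the other 10 livers. Mcm5, the scarcest ring mRNA per length by its LKO median, made up 8.73% and 13.3% in that pair and 1.27% to 3.80% in the others, and Mcm6 13.9% and 17.4%, against 4.61% to 9.59%. Mcm2, Mcm5 and Mcm6 thus had larger shares in both livers of the pair than in any other liver.

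**Figure D3:**
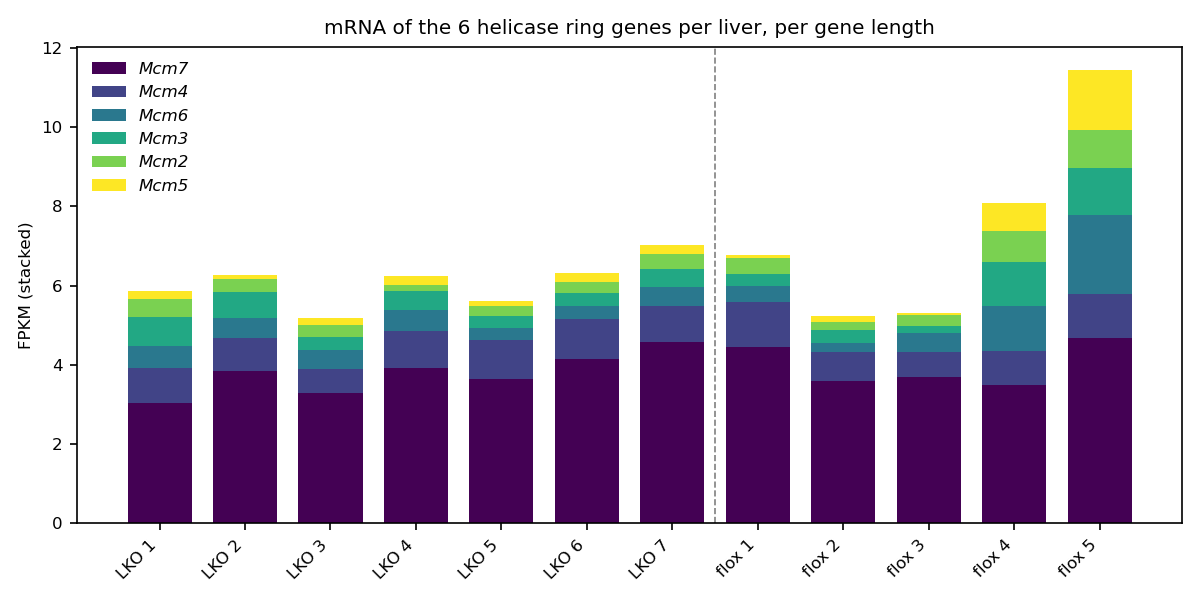
Stacked FPKM of Mcm2 to Mcm7 in each liver, LKO left of the dashed line and flox right of it. The dark Mcm7 segment is of similar height across livers, from 3.04 to 4.68 FPKM, and the segments of Mcm2, Mcm3, Mcm5 and Mcm6 are tallest in flox replicates 4 and 5, whose sums were 8.08 and 11.5 FPKM.

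Pcna (chromosome 2 from 139946290 to 139953122, minus strand), the sliding clamp, was the most abundant of the 10 genes per length, at 9.58 to 13.7 FPKM in LKO and 11.3 to 13.4 FPKM in flox livers. Its lowest, median and highest levels were 23.2, 28.4 and 32.9 CPM in LKO livers, against 27.2, 28.6, 29.4, 27.5 and 32.1 CPM in flox replicates 1 to 5. No liver stood apart, and the lowest was LKO replicate 1. Means were 28.0 ± 3.99 CPM in LKO and 29.0 ± 1.96 CPM in flox livers (SD, n = 7 and 5), with a log2 fold change of -0.05 (95% confidence interval -0.26 to 0.16, adjusted p = 0.928 in edgeR). Processed copies of Pcna exist in the mouse genome, and the sources used here do not state how reads shared with such copies were counted.

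Rrm2 (chromosome 12 from 23078505 to 23084410, plus strand), the regulated subunit of ribonucleotide reductase, was not high in flox replicates 4 and 5, which ranked 11th and 7th of 12. Its levels were 1.87, 2.44, 3.97, 5.75, 5.88, 6.75 and 2.18 CPM in LKO replicates 1 to 7, against 4.14, 4.81, 2.52, 1.97 and 2.62 CPM in flox replicates 1 to 5. LKO replicates 4, 5 and 6 were the highest 3 livers, and LKO replicate 1 and flox replicate 4 the lowest 2. Levels spread within both groups, with means of 4.12 ± 2.01 CPM in LKO and 3.21 ± 1.202 CPM in flox livers (SD, n = 7 and 5). The log2 fold change was 0.36 (95% confidence interval -0.40 to 1.12, adjusted p = 0.830 in edgeR), and 0.10 without flox replicates 4 and 5. Rrm2 was the single gene of the 8 tested with a positive log2 fold change over all livers.

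LKO replicate 1 divided the genes in its own way. Among the 10 livers other than flox replicates 4 and 5 it was the highest for Mcm2, Mcm3, Mcm6 and Top2a, and the lowest for Mcm7, Pcna and Rrm2.

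Mki67 (chromosome 7 from 145865498 to 145892056, minus strand), the marker of cycling cells, was near the limit of detection in 10 livers. It had 10, 2, 8, 8, 4, 5 and 11 counts in LKO replicates 1 to 7, against 6, 2, 3, 48 and 90 counts in flox replicates 1 to 5. In CPM, LKO livers had a lowest, median and highest of 0.135, 0.558 and 0.748, against 0.360, 0.141, 0.229, 2.95 and 5.49 in flox livers. Flox replicates 4 and 5 were 3.95 and 7.33 times the highest of the other 10 livers, and flox replicates 1 to 3 lay inside the LKO range. The mean was 0.466 ± 0.226 CPM in LKO and 1.83 ± 2.36 CPM in flox livers (SD, n = 7 and 5). The difference of -1.37 CPM had a two-sided exact permutation p of 0.141 over 792 splits, the smallest possible being 0.00126. Without flox replicates 4 and 5 it was 0.222 CPM, of the opposite sign, with an exact p of 0.167 over 120 splits.

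Top2a (chromosome 11 from 104756654 to 104791916, minus strand), which separates copied chromosomes, had fewer counts still in most livers. It had 11, 1, 6, 3, 2, 2 and 3 counts in LKO replicates 1 to 7, against 2, 4, 1, 38 and 77 counts in flox replicates 1 to 5. Outside flox replicates 4 and 5, 7 of the 10 livers had 3 counts or fewer. Means were 0.269 ± 0.225 CPM in LKO and 1.502 ± 2.02 CPM in flox livers (SD, n = 7 and 5), a difference of -1.23 CPM with a two-sided exact permutation p of 0.111. Without flox replicates 4 and 5 the difference was 0.109 CPM with an exact p of 0.517. No difference was thus detected among the remaining 10 livers, whose counts were 1 to 11.

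Ordered per length, the median levels in LKO livers were 11.7 FPKM for Pcna, 3.85 for Mcm7, 1.42 for Rrm2, 0.925 for Mcm4, 0.479 for Mcm6, 0.451 for Mcm3, 0.308 for Mcm2, 0.207 for Mcm5, 0.0549 for Mki67 and 0.0226 for Top2a. Pcna and Mcm7 each lay above the next gene over the whole LKO range, as did Mcm4 above Mcm6 and Mcm5 above Mki67. The LKO ranges of the other neighbours overlapped (Rrm2 with Mcm4, Mcm6 with Mcm3, Mcm3 with Mcm2, Mcm2 with Mcm5, and Mki67 with Top2a). In flox replicate 5 the order differed, with Mcm6 at 1.99 FPKM, Mcm5 at 1.53, and Rrm2 at 0.949.

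Across the livers, 4 relations of log2 CPM were computed, with permutation p adjusted over the 4. Mki67 followed Top2a (Pearson r = 0.93, adjusted permutation p = 0.0006, Spearman rho = 0.76, adjusted permutation p = 0.0128, n = 12 livers). Mki67 also followed the mean of the 6 ring genes (r = 0.94, adjusted permutation p = 0.0006, rho = 0.76, adjusted permutation p = 0.0128). Without flox replicates 4 and 5, the livers farthest from the Mki67 median, r was 0.58 and 0.63 (adjusted permutation p = 0.155 for both). Both r thus stayed positive but did not pass the threshold without that pair. Within LKO livers alone r was 0.74 and 0.43 (adjusted exact permutation p = 0.226 and 0.460, n = 7). Mki67 and Rrm2 had r = -0.42 and rho = -0.39 (adjusted permutation p = 0.244 and 0.280), with r = -0.20 without the pair. Pcna and the ring mean had r = 0.11 and rho = -0.17 (adjusted permutation p = 0.742 and 0.603). Their r was 0.19 without LKO replicates 1 and 2, the livers farthest from the Pcna median, and -0.38 without flox replicates 4 and 5.

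Genes most like these patterns were taken from 11887 tested genes with a mean of at least 1 CPM, by Pearson r of log2 CPM over the 12 livers. The nearest to the mean of the ring genes were Cybb (r = 0.984), an oxidase subunit of phagocytes, Csf1r (0.983), the receptor for the growth factor CSF1, Syk (0.983), a tyrosine kinase, Rassf2 (0.977) and Lgmn (0.977), a lysosomal protease. Over the 10 livers other than flox replicates 4 and 5 their r was 0.938, 0.956, 0.962, 0.850 and 0.880. Nearest to the mean of Mki67 and Top2a were Cd37 (0.979), a tetraspanin, Fcer1g (0.979), a signalling chain of Fc receptors, Itgb7 (0.977), an integrin subunit, Ckap4 (0.974) and Coro1a (0.972), an actin-binding protein. In the other 10 livers these had 0.840, 0.959, 0.845, 0.905 and 0.784. The mean of at least 1 CPM was taken over all 12 livers, and Cd37 and Itgb7 reached it only through flox replicates 4 and 5. These r are descriptions of ranked genes that share libraries, with no test.

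Markers of other cell types moved with the same livers. The macrophage and Kupffer cell list (14 of 16 entries measured) summed to 119 to 335 CPM in LKO livers, against 161, 88.6, 52.6, 744 and 1066 CPM in flox replicates 1 to 5. For 13 of its 14 genes, all 13 of them tested, flox replicates 4 and 5 were the 2 highest livers, beside 11.4% of all genes tested. Itgam was at 0 in every liver. LKO replicate 1, the next liver, also had the highest level of Mcm2, Mcm3 and Mcm6 outside the pair. The 20 neutrophil markers summed to 10.6 to 26.2 CPM in LKO livers, against 6.53, 11.4, 8.48, 547 and 860 CPM in flox replicates 1 to 5. Of the 20, 19 were highest in that pair, and Cebpe, at up to 4.65 CPM in LKO livers, was not. No share over all measured genes was computed for this count. The low-count filter kept 3 of the 20, and 2 of these 3 had that pattern. Cebpe, the other of the 3, passed the filter only through flox replicates 4 and 5, so these counts are descriptions. Lcn2 alone had 5.86 to 25.0 CPM in LKO livers, against 192 and 297 CPM in the pair. Mpo, an enzyme of neutrophil granules and their precursors, measured 20.5 and 27.5 CPM in flox replicates 4 and 5 and at most 0.074 CPM elsewhere, and Fcnb was at 0 in all 10 other livers.

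Endothelial markers summed to 91.9 to 319 CPM in LKO livers, against 133, 124, 104, 364 and 488 CPM in flox replicates 1 to 5, with 9 of 10 genes highest in the pair. Stellate and mesenchymal markers summed to 134 to 239.9 CPM in LKO livers, against 145, 173, 94.4, 263 and 379 CPM in flox replicates 1 to 5, with 6 of 10. All 10 genes of each list were tested, and the share over all genes tested was 11.4%. Erythroid markers (14 of 16 entries measured) summed to 95.4 to 195 CPM in LKO livers and 88.3 to 139 CPM in flox livers, with 101 and 119 CPM in that pair. T, NK and B cell markers summed to 6.36 to 18.6 CPM in LKO livers and 5.87 to 17.2 CPM in flox livers, and cholangiocyte markers to 39.5 to 65.5 CPM in LKO livers and 37.2 to 51.9 CPM in flox livers. Hepatocyte markers (11 of 12 entries measured) summed to 101675 to 132154 CPM in LKO livers and 97158 to 127967 CPM in flox livers, with 103114 and 97158 CPM in flox replicates 4 and 5. The part of these cell types in the levels of the 10 genes was not tested. In RNA of whole livers, fewer cells of a type and less RNA per cell cannot be told apart.

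Mcm2, Mcm3, Mcm5 and Mcm6 were put together because flox replicates 4 and 5 were their highest livers, so their high sums in that pair, and the contrast with Mcm4 and Mcm7, follow from the choice and are given as values. They summed to 17.3 and 25.6 CPM in flox replicates 4 and 5, to 9.36 CPM in LKO replicate 1 and to 4.24 to 7.51 CPM in the other 9 livers. Mcm4 and Mcm7 together summed to 18.01 and 23.9 CPM in flox replicates 4 and 5, inside or near the 16.3 to 23.1 CPM of the other 10 livers.

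**Figure D4:**
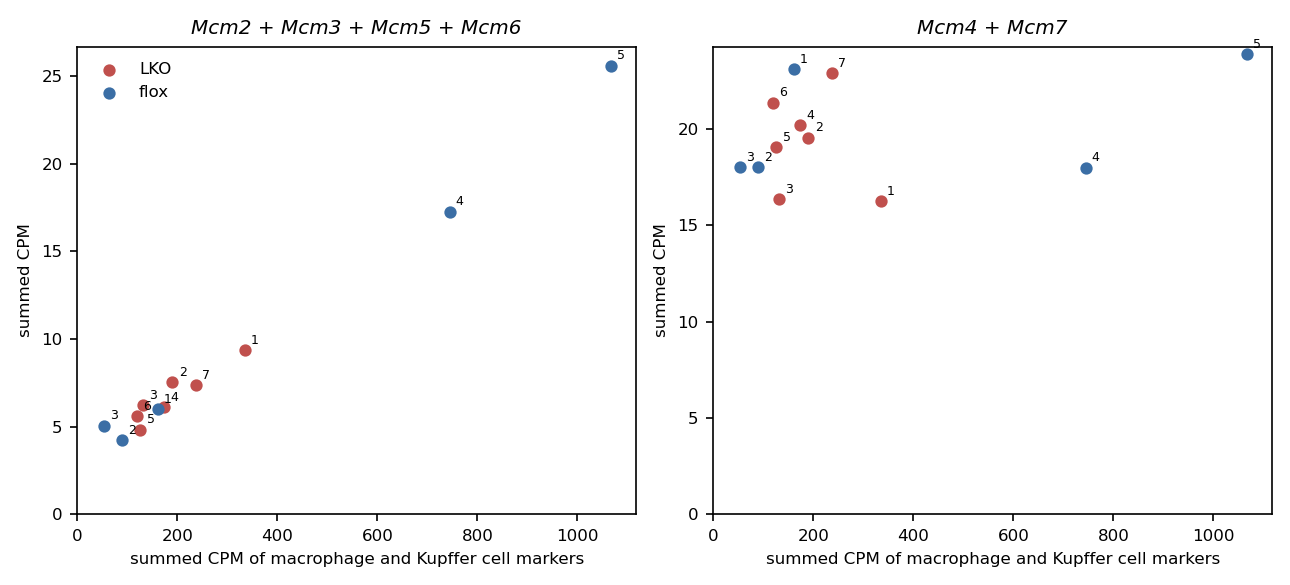
Summed CPM of Mcm2, Mcm3, Mcm5 and Mcm6 (left) and of Mcm4 and Mcm7 (right) against the summed CPM of the macrophage and Kupffer cell markers, with 1 point per liver, LKO in red and flox in blue, labelled by replicate number. The genes of the left panel were put together because they were highest in flox replicates 4 and 5 (17.3 and 25.6 CPM there), with LKO replicate 1 next at 9.36 CPM, and on the right the levels lie between 16.3 and 23.9 CPM at every marker level.

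The wider machinery of replication and the cell cycle was read from 7 lists, of which 166 of 173 entries were measured and 118 tested. No gene of these lists passed in edgeR (0 of 118) or in DESeq2. At an unadjusted p under 0.05 there were 8 of the 118 genes, 2 higher and 6 lower in LKO livers, a share near that of all genes tested (7.64%). Cdc25b, among the 6, passed the low-count filter only through flox replicates 4 and 5. The median log2 fold change of the 8 tested genes among the 10 was -0.26, with 7 below 0, against -0.006 over all genes tested. Without flox replicates 4 and 5 it was 0.13, with 6 of 8 above 0, against 0.004 over all genes, and 0 were called, against 1 of 12811 (0.00781%).

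The genes of origin licensing and of the helicase outside the ring (17 of 23 measured genes tested) had a median of 0.08. Cdt1, which loads the ring at origins, measured 2.72 ± 0.57 CPM in LKO and 3.87 ± 0.70 CPM in flox livers (log2 fold change -0.51, adjusted p = 0.625 in edgeR). Gins4, a subunit of the active helicase, measured 17.2 ± 1.65 CPM in LKO and 14.5 ± 2.10 CPM in flox livers (0.25, adjusted p = 0.635). Of these 23 genes, 2 had flox replicates 4 and 5 as their highest livers, and 0 of the 17 tested, beside 11.4% of all genes tested.

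Polymerases and fork proteins (30 of 34 tested) had a median of -0.09. Of the 30 tested, 6 were highest in that pair, beside 11.4% of all genes tested. The clamp loader subunits Rfc2 and Rfc5, which place PCNA on DNA, had log2 fold changes of -0.27 and -0.41 (adjusted p = 0.650 and 0.664 in edgeR). The chromatin genes (7 of 9 tested) had a median of -0.006, and Chaf1b, a subunit of the histone chaperone CAF-1, measured 1.12 ± 0.39 CPM in LKO and 1.72 ± 0.29 CPM in flox livers (-0.61, adjusted p = 0.635). Lmnb1, a lamin of the nuclear envelope, was at -0.18 (adjusted p = 0.853). Nucleotide supply genes (16 of 16 tested) had a median of 0.03, with Umps, which makes uridine monophosphate, at -0.14 and Dut, which breaks down dUTP, at 0.23 (adjusted p = 0.741 and 0.796).

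The list of G1 cyclins, E2F and RB genes (21 of 25 tested) had a median of -0.11. E2f3, an activating E2F factor, measured 9.26 ± 1.19 CPM in LKO and 7.65 ± 1.203 CPM in flox livers (log2 fold change 0.28, adjusted p = 0.651 in edgeR), and Cdc25a, a phosphatase that activates CDKs, was at -0.29 (adjusted p = 0.704). CDK inhibitors and p53 targets (15 of 17 tested) had a median of -0.23. Their genes with the smallest p were Cdkn2d, an inhibitor of CDK4 and CDK6, at -0.53 (adjusted p = 0.651) and Btg2, an antiproliferative gene, at -0.77 (adjusted p = 0.664).

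Mitosis genes were mostly scarce. Of 42 measured genes, 26 had flox replicates 4 and 5 as their 2 highest livers, and no share over all measured genes was computed. Of the 42, 12 passed the low-count filter, and 3 of these 12 had that pattern, beside 11.4% of all genes tested. Cdc25b, among the 3, passed the filter only through flox replicates 4 and 5. This count and the fold change of Cdc25b below are therefore descriptions. The summed level of the 42 was 43.1 to 47.9 CPM in LKO livers, and 39.3 to 78.0 CPM in flox livers, with 62.2 and 78.0 CPM in flox replicates 4 and 5. Of this sum Pttg1 alone gave 18.3 to 23.1 CPM in LKO livers. It went the other way, with its 2 lowest levels, 13.7 and 17.4 CPM, in flox replicates 4 and 5. The median log2 fold change of the 12 tested was -0.41, with -0.20 without flox replicate 5 and -0.06 without the pair. With no low-count filter the median was -1.12, and -1.08 with DESeq2, and without the pair these were 0.03 and 0.02. Aurka, a kinase of the spindle poles, measured 2.20 ± 0.46 CPM in LKO and 3.49 ± 0.81 CPM in flox livers (log2 fold change -0.67, adjusted p = 0.623 in edgeR), and Cdc25b, a phosphatase that starts mitosis, 0.556 ± 0.219 CPM in LKO and 1.203 ± 0.945 CPM in flox livers (-1.12, adjusted p = 0.650).

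**Figure D5:**
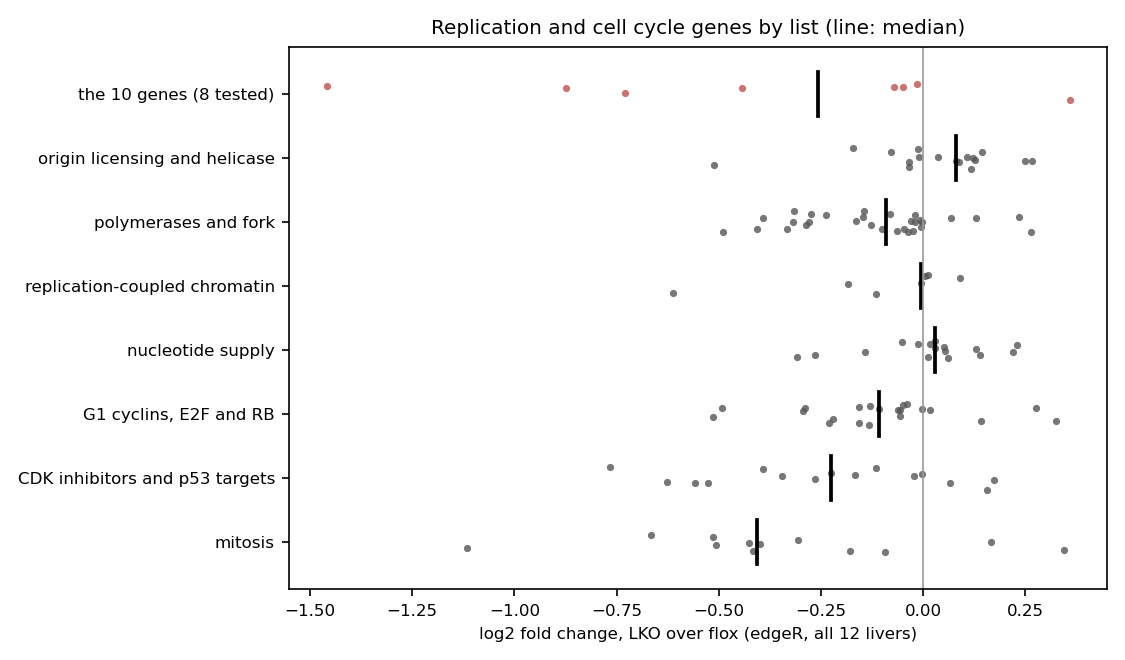
Log2 fold change (LKO over flox, edgeR, all 12 livers) of each tested gene of the 10 genes (red) and of the 7 lists (grey), with 1 row per list and the median as a black line. The medians run from -0.41 for mitosis to 0.08 for origin licensing and helicase, and the 4 points of the top row farthest left are Mcm5, Mcm6, Mcm2 and Mcm3.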

How the data were processed

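Livers of 7 LKO and 5 flox mice were compared. Per the labels' protocols, RNA was extracted with TRIzol, and the NEBNext Ultra RNA kit served for library preparation. Per the submitters' processing notes, the build was GRCm39 and the tools included HISAT2 2.0.5 and featureCounts 1.5.0-p3, beside fastp, DESeq2 1.20.0 and CASAVA 1.8, while the table carries C57BL/6NJ strain identifiers. Gene coordinates are printed as in the table, and promoter sequences are those of RefSeq for GRCm38.p6, so the coordinate systems are not to be mixed. The authors deposited whole-number counts per gene, used as deposited for all tests, and a table of FPKM values, which the authors made by dividing each count by gene length and by 1 size per library, as checked on the file.

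Genes were filtered with filterByExpr (12615 left, minimum count 10), scaled by TMM and tested by the quasi-likelihood F-test of edgeR 4.0.16 (robust glmQLFit), with Benjamini-Hochberg adjustment over all genes tested and a threshold of 0.05. Fold changes are LKO over flox. Mki67 and Top2a, outside the filter, were tested by exact permutation of mean CPM (two-sided). Correlations used log2 CPM (prior count 2) and 100000 permutations, or all of them within LKO livers. Library totals were 13399874 to 16525053 counts. Replicates of a group differed by more than counting noise (8.47 to 86.5 chi-square units per degree of freedom).

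The 10 genes, the lists and the livers left out were chosen with earlier results of these data known. The genes named were the 10, Ube4a, Prkdc, the 2 tested genes with the smallest p of each pathway list, and the 5 genes most alike by r. Genes named for a marker at 0 or for a cell type, such as Mpo and Fcnb, and Pttg1 were chosen after their values were seen. Alternatives were other scaling, other low-count filters, DESeq2 1.42.0, limma 3.58.1 (voom with quality weights, and log2(FPKM + 0.1) or log2(FPKM + 1)), non-robust dispersion, the replicate number as a block, each liver left out in turn, and both flox replicates 4 and 5 left out. The code was tested on simulated data. Calculations used R 4.3.3 and Python 3.11.15.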

Additional observations from a re-analysis of the deposited data

How the results depend on the processing

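The fit with edgeR called 0 of the 8 tested genes among the 10 and 0 genes of the 7 lists, and every alternative run also called 0 of each. Over all genes it called 1, with 2 under the replicate block, 28 with DESeq2, 4 with DESeq2 without flox replicates 4 and 5, 2 without a low-count filter and that pair, and 1 to 2 with each liver left out in turn (2 without LKO replicate 7). Same-numbered livers did not deviate together (correlations of -0.15, 0.02, 0.10, 0.03 and -0.29). The labels do not state that the numbers pair the mice. The correlations cannot exclude it, as paired mice need not deviate together. Mcm7, Pcna and Rrm2 kept their direction under every alternative.

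Without flox replicates 4 and 5 the direction turned for Mcm2 (log2 fold change 0.15), Mcm3 (0.71), Mcm4 (0.0877), Mcm5 (0.86) and Mcm6 (0.31). It turned likewise in DESeq2 without the pair (0.14, 0.71, 0.0777, 0.87 and 0.30) and without a low-count filter and the pair (0.15, 0.72, 0.0918, 0.87 and 0.31). Mcm4 was also at 0.0025 on the log2(FPKM + 0.1) scale and ran from -0.12 to 0.0797 with each liver left out. The mean CPM difference of Mki67 was 0.222 and that of Top2a 0.109 without the pair, and with each liver left out they ran from -1.79 to -0.455 and from -1.59 to -0.435, nearest to 0 without flox replicate 5. The correlation of Pcna with the ring mean was -0.38 without the pair and -0.41 within LKO livers. The median of the mitosis list was -0.41 over its tested genes, -1.12 with no low-count filter, -1.08 with DESeq2 and -0.087 on the log2(FPKM + 1) scale. That of the licensing list, 0.08, was -0.0068 with no low-count filter and -0.019 with DESeq2. The cause was not tested. Those fits hold 3 flox livers. Depth limits Mki67, Top2a and Mcm5, which had 1 to 12 counts in the livers outside the pair.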
